A study of Mus musculus with 8 samples.

Results

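The genes that handle the calcium stores of the endoplasmic reticulum (ER) and store-operated calcium entry were followed in mesenchymal stem cells of mouse bone marrow, with and without ellagic acid. They were chosen as the rows of the deposited count table whose name is Itpr1, Itpr2, Itpr3, Stim1, Stim2, Orai1, Orai2, Orai3, Atp2a2 or Atp2b1, which gave 10 of 21899 genes. All 10 passed the filter on low counts, as did 11777 genes of the table. The cells came from the femur and are labelled as bone marrow mesenchymal stem cells. The 4 EA libraries came from cells given 10 µM ellagic acid, a plant polyphenol, for 48 h. The 4 control libraries came from cells given the same dose of DMSO for 48 h. Poly(A) RNA was sequenced. No genotype, strain, age or passage was given. Whether the libraries of a group are separate animals or cultures is not stated, so each p-value measures the spread between these libraries only, and that spread may be technical.

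Cells keep calcium in the ER at a far higher concentration than in the cytosol. Inositol trisphosphate (IP3) receptors, encoded by the Itpr genes, are channels of the ER membrane that open when phospholipase C makes IP3, and calcium then flows into the cytosol. STIM proteins sense the loss of calcium in the ER lumen and gather where the ER meets the plasma membrane, where they open channels built of ORAI proteins, so that calcium enters from outside and the store can be filled again. Atp2a2 encodes SERCA2, the pump that moves calcium back into the ER, and Atp2b1 encodes PMCA1, a plasma membrane pump that removes calcium from the cell. In mesenchymal stem cells calcium signals of this kind are known to take part in proliferation and differentiation.

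Library totals ranged from 14112519 to 17390200 reads. By edgeR's quasi-likelihood test at a Benjamini-Hochberg adjusted p under 0.05, 67.2% of the tested genes were called, with 33.1% of all tested genes higher and 34.2% lower in EA. The trimmed mean of M values (TMM), which scales each library on the bulk of its genes, gave factors of 1.13 to 1.14 in the controls and 0.878 to 0.885 in EA. Over all tested genes the median log2 fold change was −0.02 under TMM and −0.38 when scaled by library totals alone, so a fold change can differ by that shift between the scales. Under library totals 21.2% of the calls were higher in EA, against 49.2% under TMM. CPM below are the reads of a gene divided by the TMM-scaled library size, and FPKM are the authors' deposited values per length and column total. The stromal markers Pdgfra, Pdgfrb and Cd44 were present, at 137, 190 and 506 CPM in control and 631, 520 and 466 in EA, whereas Thy1 had 12 reads over the control libraries and 7 over the EA libraries, and Eng and Nt5e lay at 2.16 and 4.39 CPM in control. Of 14 tested stromal markers 8 were higher and 3 lower, beside 33.1% higher and 34.2% lower among all tested genes. The lower ones were Ly6a (33.2 to 11.8 CPM), Vcam1 (308 to 207 CPM) and Prrx1 (510 to 338 CPM). Lepr was low in both groups, at 0.824 CPM in control and 1.28 in EA. The summed level of the haematopoietic and macrophage list was 68.0 to 85.7 CPM by library totals in control and 52.6 to 57.0 in EA, with Ptprc at 16 and 17 reads over the 4 libraries of each group. On the CPM scale used for single genes, Cd14 fell from 34.0 to 9.64 while Lyz2 rose from 34.3 to 51.0. The skeletal muscle list was at 2.14 to 2.52 CPM by library totals in control and 4.60 to 8.93 in EA. Of its genes Acta1 rose from 1.22 to 7.14 CPM, whereas Ckm, Mylpf, Tnnt3 and Myog stayed under 0.5 CPM and were not tested, and Myod1 had 0 reads. The part of these lists in the results was not tested. In bulk RNA, fewer cells of a type and less RNA per cell cannot be told apart.

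All 10 calcium store genes were called, 6 higher and 4 lower in EA, and the IP3 receptor, STIM and ORAI families each held members that moved in opposite directions. Among the IP3 receptors Itpr1 and Itpr3 rose and Itpr2 fell. Stim1 rose and Stim2 fell slightly, and among the channels Orai2 rose while Orai1 and Orai3 fell. The pumps Atp2a2 and Atp2b1 were 1.24-fold and 1.12-fold higher on the TMM scale, and had negative log2 fold changes by library totals and on log2 FPKM. A count of 10 of 10 stands beside 67.2% called among all tested genes. In 9 of the 10 the 2 groups of libraries did not overlap in CPM, beside 60.6% of all tested genes. The median size of the log2 fold change was 0.67 over the 10 genes and 0.39 over all tested genes, and the signed medians were 0.23 and −0.02. These values are on the TMM scale. By library totals 4 of the 10 were called higher and 5 lower, so no direction is given for the 10 as a set.

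**Figure D1:**
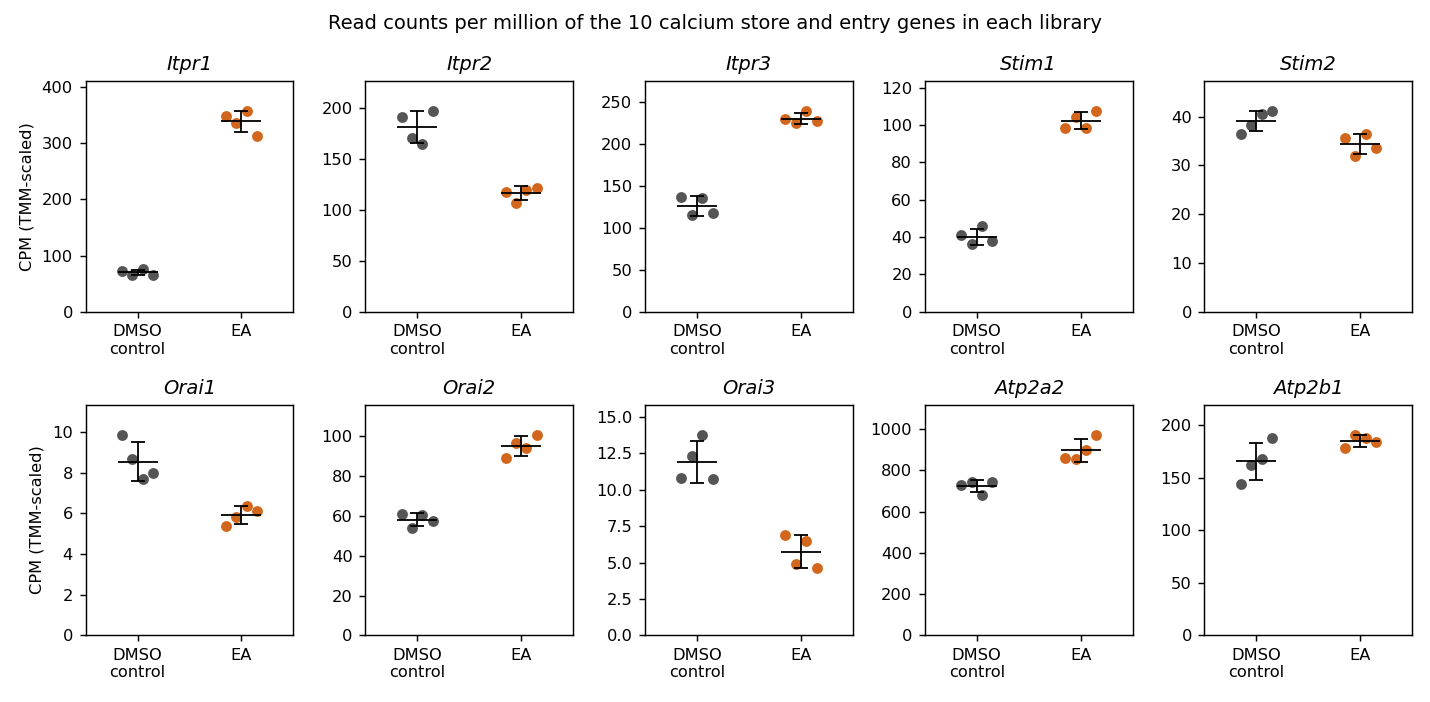
TMM-scaled counts (CPM) of the 10 calcium store genes in each of the 4 control and 4 EA libraries, with the group mean and SD. Itpr1, Stim1, Itpr3 and Orai2 lie higher in every EA library than in any control library, Itpr2, Orai1 and Orai3 lie lower, and Atp2b1 is the gene whose groups overlap.

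Of the IP3 receptors, Itpr1 encodes the type 1 receptor, known best from neurons and smooth muscle. It lies on chromosome 6 at 108190057 to 108528070 on the plus strand (GRCm39, ENSMUSG00000030102). Control libraries 1 to 4 had 72.7, 65.9, 75.4 and 65.8 CPM, and EA libraries 1 to 4 had 349, 337, 357 and 313 CPM. Every EA library was thus more than 4 times as high as any control library. The mean went from 69.98 ± 4.85 to 339 ± 19.5 CPM (SD, n = 4 each), a 4.84-fold rise (log2 fold change 2.28, SE 0.064, edgeR adjusted p = 3.32e-17). Only 2.22% of the tested genes had a higher log2 fold change.

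Itpr2, the type 2 receptor, which binds IP3 most tightly of the family, lies on the same chromosome (146009797 to 146403721, minus strand). Control libraries had 191, 170.3, 164 and 197 CPM, and EA libraries had 118, 107, 119 and 122 CPM. No EA library reached the lowest control. The mean fell from 181 ± 15.7 to 116 ± 6.67 CPM, 1.55-fold lower (log2 fold change −0.64, SE 0.066, adjusted p = 4.39e-08).

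Itpr3 encodes the type 3 receptor, on chromosome 17 (27276278 to 27341197, plus strand). Control libraries had 137, 115, 136 and 117 CPM, and EA libraries had 229, 224, 239 and 227 CPM. The EA libraries lay close together and all above the controls. The mean rose from 126 ± 11.6 to 229.8 ± 6.40 CPM, a 1.82-fold change (log2 fold change 0.87, SE 0.063, adjusted p = 1.77e-10). The antisense gene Itpr3os overlaps 2.58% of the exon bases of Itpr3, and since the strand setting of the counting is not given in the sources used here, reads from those bases cannot be told apart.

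Levels of the paralogs can be set side by side in FPKM, which divides by the deposited gene length. The isoforms expressed were not examined, so an order of genes by FPKM holds for that length only. In control Itpr3 and Itpr2 stood highest, at 15.9 ± 1.49 and 13.8 ± 1.13 FPKM, and Itpr1 was at 4.33 ± 0.316. In EA the order was Itpr3 at 22.5 ± 0.677, Itpr1 at 16.3 ± 0.988 and Itpr2 at 6.93 ± 0.391 FPKM. As shares of the summed IP3 receptor FPKM, Itpr1 went from 12.7% ± 0.689 to 35.7% ± 1.24 and Itpr2 from 40.7% ± 3.19 to 15.2% ± 0.852. Itpr3 kept the largest mean share, at 46.6% ± 2.59 and 49.2% ± 0.556, with ranges of 43.5% to 49.7% and 48.5% to 49.8% that overlapped. The exchange of rank was thus between Itpr1 and Itpr2.

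A ratio of 2 genes within a library does not depend on how that library is scaled. The FPKM ratio of Itpr1 to Itpr2 was 0.307, 0.314, 0.371 and 0.271 in control libraries 1 to 4 and 2.40, 2.55, 2.42 and 2.07 in EA. Itpr1 was the lower of the pair in all 4 control libraries and the higher in all 4 EA libraries. The log2 ratio differed by 2.91, from a geometric mean of 0.314 to 2.35 (two-sided exact permutation test over the 70 assignments of the libraries, p = 0.0286, the smallest this design allows, and 0.0367 after Benjamini-Hochberg adjustment over 9 ratios). The ratio of Itpr1 to Itpr3 rose from 0.274 to 0.726 and that of Itpr2 to Itpr3 fell from 0.874 to 0.308, with the same exact p and adjusted p. The summed IP3 receptor level was 34.0 ± 1.91 FPKM in control and 45.7 ± 1.66 in EA.

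**Figure D2:**
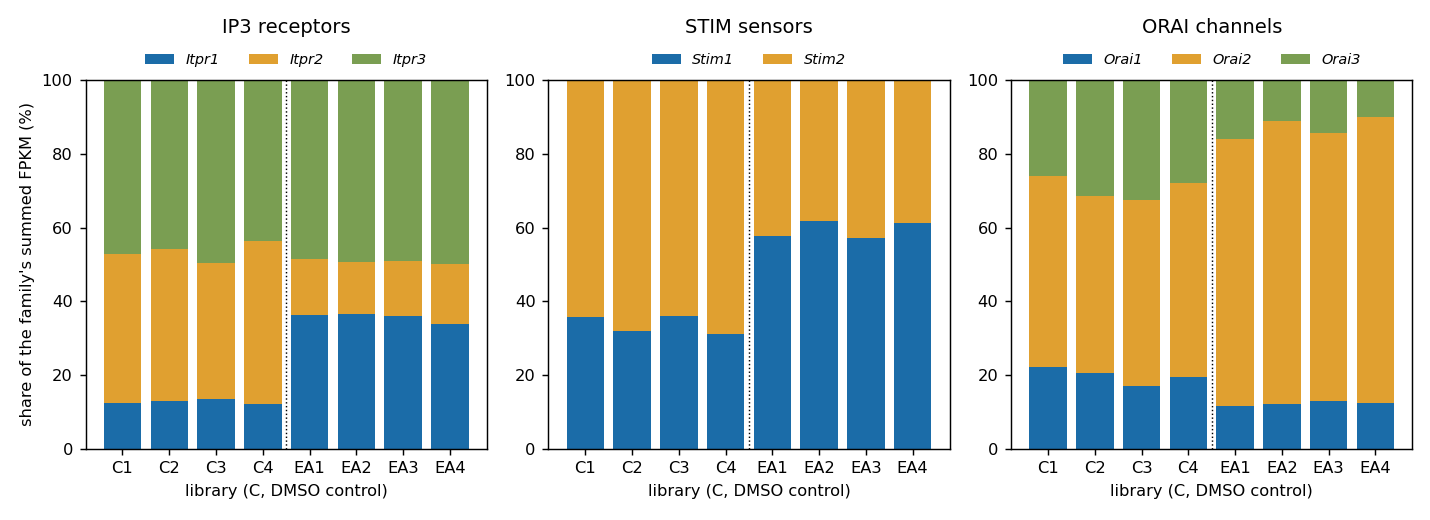
Share of the summed FPKM of each family held by each member in each control and EA library, in percent. Itpr1 goes from a mean of 12.7% to 35.7% of the IP3 receptors, Stim1 from 33.7% to 59.5% of the STIM pair and Orai2 from 50.7% to 74.8% of the ORAI genes.

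STIM1 is the main sensor of store depletion in most cells, and STIM2 responds to smaller falls of luminal calcium and helps hold the resting level. Stim1 lies on chromosome 7 (101917013 to 102086526, plus strand, GRCm39) and Stim2 on chromosome 5 (54155841 to 54278399, plus strand). Orai1, the pore of the classical store-operated current, and Orai2 lie on chromosome 5 (123153137 to 123168519, plus strand, and 136176313 to 136199567, minus strand), and Orai3 on chromosome 7 (127368987 to 127374322, plus strand). Since paralogs of both families moved apart, the 100 bases before each annotated start are shown, from RefSeq on build GRCm38.p6, 5′ to 3′ on the gene's strand. The table held a promoter for 8 of the 10 genes, and Itpr1 and Atp2a2 had no entry. Capitals mark a GC box (GGGCGG) or an E-box (CACGTG) on either strand.
Stim1, chr7:102267719-102267818, plus strand: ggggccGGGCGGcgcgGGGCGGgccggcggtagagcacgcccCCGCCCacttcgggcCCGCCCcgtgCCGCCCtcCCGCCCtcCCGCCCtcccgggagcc
Stim2, chr5:53998423-53998522, plus strand: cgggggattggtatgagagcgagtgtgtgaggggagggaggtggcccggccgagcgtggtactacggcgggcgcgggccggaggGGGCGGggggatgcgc
Orai1, chr5:123014974-123015073, plus strand: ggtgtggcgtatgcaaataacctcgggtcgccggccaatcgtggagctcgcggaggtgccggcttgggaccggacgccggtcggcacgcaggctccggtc
Orai2, chr5:136170657-136170756, minus strand: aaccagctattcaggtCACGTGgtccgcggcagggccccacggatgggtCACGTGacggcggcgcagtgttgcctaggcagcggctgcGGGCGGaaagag
Orai3, chr7:127769715-127769814, plus strand: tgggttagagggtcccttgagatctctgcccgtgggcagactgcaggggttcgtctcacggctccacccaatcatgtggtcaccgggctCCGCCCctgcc

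In the 250 bases before the start, the GC box was found 8 times for Stim1, 3 times for Stim2 and Orai1, and once for Orai2 and Orai3. It was present in 32.7% of all 32851 windows of that length. The E-box was found 2 times for Orai2 and 0 times for the other 4 genes shown, and 6.02% of all windows hold it. Itpr3, which also rose, had 1 E-box, while Stim1 and Atp2b1, also called higher, and Itpr2 had 0. CpG dinucleotides numbered 31 for Stim1, 30 for Stim2 and 30 for Orai1, 17 for Orai2 and 7 for Orai3, beside a median of 6 over all windows. The windows of Stim1 and Stim2, whose levels moved in opposite directions, were thus alike in CpG number. The CCAAT box (CCAAT) was found once each for Stim2, Orai1 and Orai3 and 2 times for Itpr2, while TATAAA and the AP-1 motif TGANTCA were found for none of the 8 genes, all motifs being searched on both strands. A match describes the letters of the window and shows no binding.

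Stim1 had 40.9, 36.5, 46.0 and 37.7 CPM in control libraries 1 to 4 and 98.7, 105, 98.3 and 107 CPM in EA. All EA libraries lay at more than 2 times any control. The mean rose from 40.3 ± 4.26 to 102 ± 4.50 CPM, 2.54-fold (log2 fold change 1.34, SE 0.073, edgeR adjusted p = 1.43e-12), and 5.82% of the tested genes had a higher log2 fold change.

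Stim2 had 36.5, 38.2, 40.5 and 41.1 CPM in control and 35.6, 32.0, 36.4 and 33.6 CPM in EA. The groups did not overlap, by a margin of 36.4 against 36.5. The mean fell from 39.1 ± 2.13 to 34.4 ± 1.99 CPM, 1.14-fold lower (log2 fold change −0.19, SE 0.074, adjusted p = 0.0325). The call was lost without control library 2, 3 or 4 or EA library 2 or 4, with adjusted p of 0.0528, 0.0873, 0.0721, 0.111 and 0.0703 in that order and log2 fold changes of −0.19 to −0.15.

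The FPKM ratio of Stim1 to Stim2 was 0.555, 0.473, 0.562 and 0.454 in control and 1.37, 1.62, 1.34 and 1.58 in EA. By FPKM, Stim2 was thus the higher of the pair in each control library and Stim1 in each EA library. The control order rests on the deposited lengths, 10371 bases for Stim1 and 5133 for Stim2. Before division by length their mean control levels were close, at 40.3 and 39.1 CPM. The log2 ratio rose by 1.53 (exact permutation p = 0.0286, adjusted 0.0367). Stim1 held 33.7% ± 2.44 of the summed STIM FPKM in control and 59.5% ± 2.34 in EA. In FPKM Stim1 was at 4.40 ± 0.486 and 8.69 ± 0.360, and Stim2 at 8.64 ± 0.485 and 5.91 ± 0.351.

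Orai2, whose product tempers the current that ORAI1 carries in immune cells, had 60.8, 53.6, 60.5 and 57.2 CPM in control and 88.9, 96.3, 93.7 and 101 CPM in EA. Each EA library was above every control. The mean rose from 58.0 ± 3.36 to 94.9 ± 4.86 CPM, 1.63-fold (log2 fold change 0.71, SE 0.064, adjusted p = 5.28e-09).

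Orai1 was the least abundant of the 10 by FPKM in both groups, with 602 reads over the control libraries and 330 over EA. Its control libraries had 9.86, 8.66, 7.68 and 7.99 CPM and its EA libraries 5.38, 5.81, 6.37 and 6.12 CPM. All EA libraries lay below all controls. The mean fell from 8.55 ± 0.965 to 5.92 ± 0.424 CPM, 1.44-fold lower (log2 fold change −0.53, SE 0.14, adjusted p = 0.00191).

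Orai3, a subunit that occurs in mammals and can form mixed channels with ORAI1, had 10.8, 12.3, 13.8 and 10.8 CPM in control and 6.91, 4.93, 6.50 and 4.62 CPM in EA. The highest EA library was below the lowest control. The mean fell from 11.9 ± 1.43 to 5.74 ± 1.13 CPM, 2.08-fold lower (log2 fold change −1.05, SE 0.15, adjusted p = 2.28e-06), and 7.92% of the tested genes had a lower log2 fold change. Reads numbered 840 over the control libraries and 318 over EA.

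Orai2 held 50.7% ± 1.93 of the summed ORAI FPKM in control and 74.8% ± 2.62 in EA, while Orai1 went from 19.8% ± 2.20 to 12.3% ± 0.605 and Orai3 from 29.5% ± 2.97 to 12.9% ± 2.73. Orai2 was the largest member in both groups. The log2 ratio of Orai1 to Orai2 fell by 1.23 and that of Orai2 to Orai3 rose by 1.77 (each exact permutation p = 0.0286, adjusted 0.0367). Orai1 and Orai3, which both fell, differed less from each other: their log2 ratio changed by 0.54 with overlapping groups (exact p = 0.0571, adjusted 0.0643). The ratio of Stim1 to Orai1 went from 1.04 to 3.81, a log2 change of 1.87 (exact p = 0.0286, adjusted 0.0367).

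Summed over each family, the deposited FPKM of the STIM genes was 13.0 ± 0.769 in control and 14.6 ± 0.192 in EA, and that of the ORAI genes 21.4 ± 1.05 and 18.4 ± 0.461. On the TMM scale the ORAI sum had the opposite order, 18.8 ± 0.848 in control and 20.9 ± 0.534 in EA. No direction is therefore given for the ORAI total. The ratio of the STIM sum to the ORAI sum, free of scaling, was 0.611 ± 0.0339 in control and 0.794 ± 0.0143 in EA.

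Atp2a2 was the most abundant of the 10 by a wide margin, and 2.05% of the tested genes had a higher control FPKM. It lies on chromosome 5 (122591576 to 122640288, minus strand, GRCm39). Control libraries had 730.0, 741, 682 and 743 CPM and EA libraries 861, 854, 896 and 971 CPM. On this scale the groups did not overlap, and the mean went from 724 ± 28.6 to 896 ± 53.8 CPM, 1.24-fold higher (log2 fold change 0.31, SE 0.055, adjusted p = 5.17e-05). By library totals the log2 fold change was −0.055 (adjusted p = 0.352), and in FPKM the level was 135 ± 4.72 and 129.9 ± 7.49. The rise of Atp2a2 is thus one relative to the bulk of genes, and its sign turned with the scaling.

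Atp2b1 lies on chromosome 10 (98750268 to 98862005, plus strand). Its control libraries had 144, 162, 168 and 187 CPM and its EA libraries 178, 191, 187 and 183 CPM. Control library 4 lay above EA libraries 1 and 4, and the groups overlapped. The mean went from 165 ± 17.8 to 185 ± 5.45 CPM, 1.12-fold (log2 fold change 0.16, SE 0.067, adjusted p = 0.0412). By library totals it was lower in EA, by a log2 fold change of −0.20 (adjusted p = 0.00982), and with upper-quartile factors the adjusted p was 0.957. On genes above 1 CPM in all libraries it was 0.0516. The call was also lost without control library 1 or 2 or EA library 2, 3 or 4 (adjusted p of 0.142, 0.0845, 0.0977, 0.0829 and 0.0556). The log2 ratio of Atp2a2 to Atp2b1 changed by 0.14, with overlapping groups (exact permutation p = 0.229, adjusted 0.229).

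**Figure D3:**
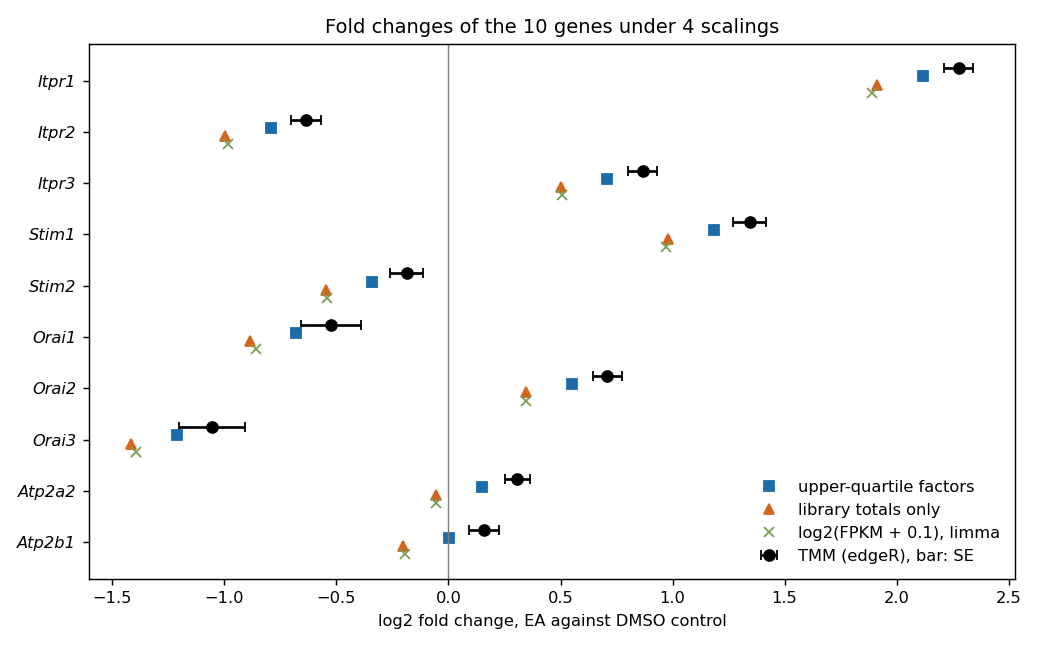
Log2 fold change of EA against control for the 10 genes under TMM and the other scalings. Itpr1, Itpr2, Itpr3, Stim1, Stim2, Orai1, Orai2 and Orai3 stay on their side of 0, while Atp2a2 and Atp2b1 cross it under library totals and FPKM.

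Both pumps are the main members of their families in these cells, with partners that moved much further. Atp2a2 held 94.2% ± 0.837 of the summed SERCA FPKM in control and 97.9% ± 0.329 in EA, as Atp2a3, the SERCA3 gene, fell 2.30-fold from 36.5 ± 7.38 to 15.9 ± 3.74 CPM (edgeR adjusted p = 7.97e-05). Atp2a1, the SERCA1 gene of skeletal muscle, fell 2.27-fold from 1.65 ± 0.217 to 0.723 ± 0.0673 CPM. Atp2b1 held 94.1% ± 0.800 of the summed PMCA FPKM in control and 78.5% ± 1.58 in EA, as Atp2b4, the PMCA4 gene, rose 5.44-fold from 7.29 ± 0.703 to 39.8 ± 1.95 CPM (adjusted p = 5.27e-15). Atp2b4 held 5.19% ± 0.642 of PMCA in control and 21.0% ± 1.21 in EA. Atp2c1, a calcium and manganese pump of the Golgi, rose 1.45-fold from 62.4 ± 5.95 to 90.4 ± 2.54 CPM, a call that was lost on log2 FPKM. The SERCA sum divided by the IP3 receptor sum went from 4.22 ± 0.344 to 2.91 ± 0.233, so that refilling pump transcripts were less abundant relative to release channel transcripts in EA, by more than the SD of either group. That difference was not tested.

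Ordered by FPKM, the control level ran from Atp2a2 at 135 through Itpr3, Itpr2, Atp2b1 at 12.3 ± 1.32, Orai2 at 10.8 ± 0.640, Stim2, Orai3 at 6.32 ± 0.796, Stim1 and Itpr1 to Orai1 at 4.22 ± 0.465. In control the libraries of Itpr3 and Itpr2, Itpr2 and Atp2b1, Atp2b1 and Orai2, Stim1 and Itpr1, and Itpr1 and Orai1 overlapped. In EA the order was Atp2a2, Itpr3, Itpr1, Orai2 at 13.8 ± 0.678, Atp2b1 at 10.7 ± 0.329, Stim1, Itpr2, Stim2, Orai3 at 2.36 ± 0.471 and Orai1 at 2.27 ± 0.164. Of these neighbours only Orai3 and Orai1 overlapped. By FPKM, Itpr1 thus moved from the last ranks to the third place. The order depends on the deposited lengths, and that of Itpr1, 18319 bases, is the longest of the 10. By CPM, Itpr1 at 69.98 in control already lay above Orai2 at 58.0, Stim1, Stim2, Orai3 and Orai1. In EA, at 339 CPM, it was below Atp2a2 alone.

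Around these genes, 12 lists of related calcium genes held 148 genes, of which 97 were tested, with 49 higher, 23 lower and a median log2 fold change of 0.18. Of the 97, 74.2% were called, beside 67.2% of all tested genes. By library totals 24 were higher and 48 lower, so the direction of the lists as a whole is not given. The counts of higher and lower genes in single lists below are on the TMM scale, and give no direction for a list. Of the related genes named, Asph, Sec61a1, Pkd1, Slc8a3, Slc24a5 and Vdac2 lost their call as higher by library totals, Vdac2 also with upper-quartile factors, and Rcn1 lost its call as lower with RLE factors. Plce1 was named after its value was seen and was not followed under these scalings.

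Of 13 tested regulators of the IP3 receptor 8 were higher and 4 lower, or 92.3% called. Among all tested genes 67.2% were called, 33.1% higher and 34.2% lower. Itpkb and Itpkc, kinases that turn IP3 into a form that no longer opens the receptor, rose 2.81-fold (30.8 ± 1.28 to 86.4 ± 3.61 CPM) and 2.87-fold (9.22 ± 1.21 to 26.5 ± 2.89 CPM). Erlin1, part of the ER complex that marks active IP3 receptors for degradation, fell 2.60-fold from 198 ± 29.0 to 76.3 ± 5.67 CPM, and Itpripl1 fell 3.25-fold from 13.1 ± 2.04 to 4.02 ± 0.747 CPM. Among 8 tested phospholipase C genes, whose enzymes make IP3, 50% were called. Plcd1, Plcd3 and Plce1 rose 1.46-fold, 1.55-fold and 1.53-fold. Plcb1 fell 1.67-fold, from 58.2 ± 6.16 to 34.8 ± 2.06 CPM. The ryanodine receptors, the other release channels of the ER, had at most 11 reads over the 4 libraries of a group and were not tested.

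Of the genes at contact sites between the ER and the plasma membrane, Jph2, a junctophilin that ties the membranes together in muscle, rose 5.50-fold from 56.9 ± 1.27 to 313 ± 18.1 CPM (edgeR adjusted p = 3.33e-18). In the same list Asph, whose locus also encodes the junctional proteins junctin and junctate, rose 1.36-fold from 229.7 ± 4.69 to 313 ± 9.21 CPM, and by library totals its adjusted p was 0.139. Esyt2, an extended synaptotagmin that also bridges ER and plasma membrane, rose 2.81-fold from 141 ± 18.9 to 396 ± 5.01 CPM. Cav1, the coat protein of caveolae, rose 2.24-fold from 249 ± 4.44 to 558 ± 12.2 CPM. Cracr2a, a cytosolic regulator of ORAI1 and STIM1, fell 1.33-fold from 12.7 ± 2.15 to 9.57 ± 0.543 CPM. Among the 11 tested regulators of store-operated entry 5 were higher, 1 lower and 5 not called. That is 54.5% called, beside 67.2% of all tested genes. None of the 7 TRPC channel genes passed the filter on low counts, and 4 of them are listed at 0 reads in all libraries.

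**Figure D4:**
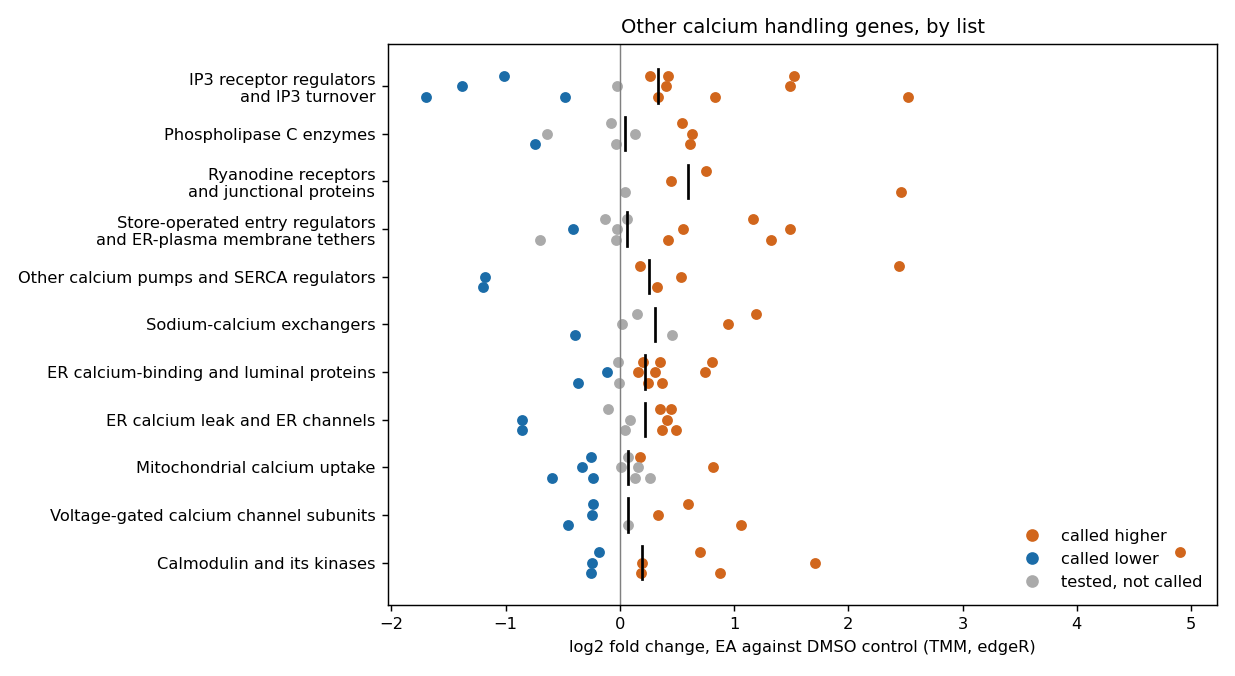
Log2 fold change of EA against control for the tested genes of the lists of related calcium genes, by list, with called and uncalled genes marked. Values run from −1.70 for Itpripl1 to 4.90 for Camk2b, with members on both sides of 0 in most lists.

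Of 12 tested genes for calcium-binding and other ER and early secretory proteins 8 were higher and 2 lower on the TMM scale. That is 83.3% called, beside 67.2% of all tested genes. Several of those called higher had a lower mean FPKM in EA than in control, whereas Sdf4 and Rcn3 had a higher one. No direction is therefore given for this list. Sdf4 and Rcn3, both of the EF-hand type, rose 1.75-fold and 1.67-fold, to 203 ± 4.34 and 147 ± 9.17 CPM. The lower members were Hspa5, the chaperone BiP (2638 ± 533 to 2045 ± 191 CPM, adjusted p = 0.0420), and Rcn1 (266 ± 3.32 to 246 ± 2.18 CPM, adjusted p = 0.0465). Hspa5 lost its call without control library 1, 2 or 4 or EA library 1, 2 or 3 (adjusted p 0.0520 to 0.121), and Rcn1 without control library 1, 2 or 3 or any EA library (0.0713 to 0.115). Rcn1 also lost it with RLE factors (0.0640), with no filter on low counts (0.0848) and with the replicate number as a block (0.0682), and Hspa5 with no filter (0.108). Of 10 tested leak and channel genes of the ER 5 were higher and 2 lower, or 70% called. The lower ones were Psen2 and Tmem38a, at 1.82-fold and 1.81-fold. Sec61a1, the pore of the protein translocon, and Pkd1, polycystin 1, were 1.41-fold and 1.33-fold higher, with adjusted p of 0.0675 and 0.395 by library totals.

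Of 6 tested sodium-calcium exchangers 2 were higher and 1 lower, or 50% called, beside 67.2% of all tested genes. Slc8b1, the mitochondrial exchanger, fell 1.31-fold from 32.0 ± 2.73 to 24.4 ± 2.14 CPM. Slc8a3 rose from 0.539 ± 0.0994 to 1.23 ± 0.724 CPM and Slc24a5 from 0.883 ± 0.303 to 1.71 ± 0.459 CPM. The call of Slc8a3 was lost without EA library 4 (adjusted p = 0.130) and that of Slc24a5 without EA library 3 (adjusted p = 0.0655).

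Among 11 tested genes of mitochondrial calcium uptake 2 were higher and 4 lower, or 54.5% called, beside 67.2% of all tested genes. Mcub, an inhibitory subunit of the mitochondrial calcium uniporter, fell 1.51-fold from 20.3 ± 1.92 to 13.4 ± 1.41 CPM, and Mcur1, a regulator of the uniporter, rose 1.76-fold from 14.8 ± 1.32 to 26.1 ± 1.68 CPM. Vdac3, an outer membrane channel, fell 1.19-fold from 152 ± 7.11 to 127 ± 5.71 CPM. Its paralog Vdac2 was 1.13-fold higher on the TMM scale and turned to a log2 fold change of −0.19 by library totals. The authors' table also lists annotation terms, a reading added after the values were seen. Its GO process of store-operated calcium entry held 13 tested genes, the STIM and ORAI genes among them, with 4 higher and 6 lower, or 76.9% called, and a median log2 fold change of −0.06. Its KEGG term for calcium signalling held 121 tested genes, all 10 calcium store genes among them, with 59 higher and 28 lower, or 71.9% called, and a median of 0.21. Of all tested genes 67.2% were called. Both terms were read on the TMM scale only. By library totals the median of all tested genes moved from −0.02 to −0.38, so no direction is given for either term.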

How the data were processed

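Poly(A) RNA of 4 control and 4 EA libraries was analysed. Read counts per gene were deposited by the authors, and cutadapt 1.15, HISAT2 2.0.5 and build GRCm39 are named per the submitters' processing notes. The name of the read counter, like its strand setting and its annotation, is not given in the sources used here. FPKM were also deposited by the authors. These equal the count divided by gene length and column total, with a largest relative deviation of 5.11e-15 over 117047 values. Reads of near-identical copies cannot be separated.

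Counts were tested in R 4.3.3 with edgeR 4.0.16 (TMM factors, filter by group, robust quasi-likelihood F test, no covariate, all 8 libraries), with Benjamini-Hochberg adjustment over 11777 genes and a call at an adjusted p under 0.05. The SE is the size of the log2 fold change divided by the square root of F, and CPM are TMM-scaled except for summed markers. Ratios used log2 FPKM with 0.01 added. Promoters came from RefSeq on GRCm38.p6. Exon overlaps were counted in GENCODE gene models. The test was checked on simulated data in which 200 of 11777 genes were changed in random directions. There edgeR recovered 193 of the 200, with 13 false calls. Far fewer genes changed there than the 67.2% called here, so the simulation cannot check calls that depend on scaling. Library totals of 14112519 to 17390200 reads set the precision, and PCR reads are not independent molecules.

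The genes and lists were chosen with earlier results of these data known. Named beside the 10 genes were, of each related list, up to 2 called higher and up to 2 called lower by smallest p. Alternatives were other scalings and filters, DESeq2 1.42.0, limma 3.58.1 (voom, and log2 FPKM with 1 or 0.1 added), an adjusted p under 0.01, a replicate block and leaving out each library.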

Additional observations from a re-analysis of the deposited data

Results flagged for a closer look

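In 116 groups of 4 libraries, the gap of the farthest library to its nearest neighbour was divided by the range and set against Dixon's critical value, which chance passes in about 1 group in 20. The log2 ratio of Itpr1 to Itpr3 in EA passed at 0.834, with EA library 4 at −0.56 and the others at −0.44 to −0.42. The log2 ratio of Orai1 to Orai2 in EA passed at 0.936, with EA library 3 at −2.47 and the others at −2.64 to −2.63. Both libraries lay on the EA side of every control library.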

How the results depend on the processing

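Over 19 alternatives per gene, the direction and call held in all 19 for Itpr1 (log2 fold change 1.70 to 2.32), Itpr2 (at most −0.59), Itpr3 (0.48 to 0.91), Stim1 (0.85 to 1.42), Orai1 (−0.89 to −0.44), Orai2 (0.32 to 0.74) and Orai3 (−1.42 to −0.96). The sign turned for Atp2a2 (−0.055, −0.056 and −0.056 by library totals, log2(FPKM + 1) and log2(FPKM + 0.1)), Atp2b1 (−0.20, −0.18 and −0.19) and Vdac2 (−0.19, −0.18 and −0.19). In the same order, calls over all genes were 1940, 1920 and 1923 higher and 7196, 7160 and 7167 lower, against 3893 and 4027. For the related lists they were 24, 22 and 21 higher and 48, 46 and 46 lower, against 49 and 23. Among the 10 genes they were 4 higher and 5 lower in each of these settings, against 6 and 4. Upper-quartile factors gave 2830 higher and 5338 lower. Without single libraries, calls ranged from 3721 to 4012 higher and from 3794 to 3957 lower over all genes, from 47 to 50 and from 20 to 22 in the related lists, and from 5 to 6 and from 3 to 4 among the 10 genes. All 99 alternative values of the ratios kept their direction, and 7 of the 9 ratios reached the smallest p. Except for Itpr1 to Itpr3, the 2 genes of each such ratio moved in opposite directions without overlap in CPM. Their smallest p thus followed from the single-gene values and adds no separate evidence. With 4 against 3 libraries the smallest exact p is 0.0571 and with 4 pairs 0.125, so those designs could not pass the threshold. With the replicate number as a block, 3834 genes were higher and 3960 lower, and the 10 genes stayed at 6 and 4. Whether equal numbers pair libraries is not stated. Deviations of same-numbered libraries correlated at 0.0265, 0.0233, 0.0266 and −0.0215, which shows no shared effect but cannot settle how the libraries were made. Depth was lowest for Orai1 and Orai3, with 330 and 318 reads over the EA libraries.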

Other observations

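Downstream of the calcium store, all 9 tested genes of calmodulin and its kinases were called, 6 higher and 3 lower, beside 67.2% called among all tested genes. Camk2b, a subunit of calmodulin-dependent kinase II, rose 29.9-fold from 0.963 ± 0.383 to 29.0 ± 5.11 CPM (edgeR adjusted p = 3.53e-14, n = 4 each), with 68 reads over the control libraries. Camkk1, a kinase that activates other calmodulin kinases, rose 3.27-fold from 15.5 ± 1.46 to 50.8 ± 2.70 CPM. Camk1 and Camk2g fell 1.19-fold and 1.18-fold.

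Of 7 tested voltage-gated calcium channel subunits 3 were higher and 3 lower, or 85.7% called, beside 33.1% higher and 34.2% lower among all tested genes. Cacna1g, a T-type channel, rose 2.08-fold from 118 ± 25.4 to 247 ± 8.68 CPM, and Cacna1a rose 1.51-fold to 55.2 ± 5.89 CPM, a call that was lost on log2 FPKM. Cacna1b fell 1.37-fold from 6.88 ± 0.354 to 5.01 ± 0.475 CPM. Cacnb3 fell 1.18-fold, and its call was lost without EA library 2 (adjusted p = 0.0517).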
